A study of Arabidopsis thaliana and Ginkgo biloba and Brassica rapa with 14 samples.

Results

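The glutamine tRNAs of A. thaliana are the tRNA consensus sequences whose name begins with Gln in the deposited tables, whatever genome they come from. They make up 4 of the 100 consensus sequences and 19 of the 687 gene loci that these sequences stand for. An isodecoder is here a tRNA sequence named by its amino acid and anticodon, and each consensus stands for a group of identical or very similar genes. The nuclear tRNA Gln(CTG) and the nuclear tRNA Gln(TTG) each had percent methylation listed at the cytosines C48 and C49 in up to 6 species. The comparison of these neighbouring cytosines within 1 tRNA, and of both isodecoders with each other, asks whether the sites methylated in one plant are methylated in the others.

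All samples were wild type and carried no treatment. Methylation came from 10 day old A. thaliana seedlings, averaged by the authors over up to 3 biological replicate RBS-seq libraries. The other species had 1 library each, from B. rapa leaf, T. durum flag leaf, C. taxifolia frond, N. oculata cells and G. biloba leaf. B. rapa (a crop relative of A. thaliana), T. durum (durum wheat) and G. biloba (ginkgo) are vascular plants, C. taxifolia is a green macroalga and N. oculata is a single-celled alga. The labels call the B. rapa and G. biloba tissue leaf, while the methods of the study name shoot apexes. Where the tissue differed between species, species and tissue cannot be told apart. Abundance came from 1 RNA-seq library of the same kind of A. thaliana seedlings, in which the tRNA region of a gel had been cut out before sequencing.

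Glutamine is encoded by CAG and CAA. The tRNA with the anticodon CTG, written as DNA, reads CAG, and the one with TTG reads CAA. Position 48 lies at the end of the variable loop, and its base pairs with base 15 of the D loop to hold the folded tRNA together, while position 49 is the first base of the T stem. In yeast these positions are methylated by the enzyme Trm4, and in mammals by its relative NSUN2. In RNA bisulfite sequencing (RBS-seq), unmethylated cytosine is read as T and 5-methylcytosine (m5C) remains C, so that the methylation level of a site is the percentage of reads with C. The method does not separate m5C from further modifications that protect a cytosine from bisulfite.

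The consensus sequences below are shown because the results turn on their adjacent cytosines. They are written 5′ to 3′ as DNA, with the bases at positions 48 and 49 in capitals. 
Gln(CTG), nuclear: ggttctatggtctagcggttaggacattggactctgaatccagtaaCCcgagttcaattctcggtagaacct
Gln(TTG), nuclear: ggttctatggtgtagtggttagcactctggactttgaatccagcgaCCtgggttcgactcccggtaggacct
Gln(TTG), chloroplast: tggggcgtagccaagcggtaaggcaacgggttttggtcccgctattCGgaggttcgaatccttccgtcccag
Gln(TTG), mitochondrial or nuclear: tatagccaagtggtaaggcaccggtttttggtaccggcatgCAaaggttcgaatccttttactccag
The first 3 are 72 bases long and the last is 67 bases long. Both nuclear sequences carry CC at 48 and 49, whereas position 49 is G in the chloroplast sequence and A in the sequence shared by the mitochondrial and nuclear genomes. No site of these last sequences is in the methylation table. The table lists a site only if some species reached 20%, which held for 59 of its 59 sites, so the 14 other cytosines of nuclear Gln(CTG) and the 15 of nuclear Gln(TTG) have no value there.

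The nuclear tRNA Gln(CTG) consensus stands for 9 genes and the nuclear tRNA Gln(TTG) consensus for 7. In the TAIR10 build, the Gln(CTG) genes lie on all nuclear chromosomes, with AT1G01270 at chr1:111890-111961, AT1G03570 at chr1:892514-892585, AT2G16240 at chr2:7039094-7039165, AT2G21700 at chr2:9270663-9270734 and AT3G61825 at chr3:22881807-22881878. On chromosome 4 are AT4G00985 at chr4:424717-424788, AT4G03405 at chr4:1501607-1501678 and AT4G27875 at chr4:13882917-13882988, and on chromosome 5 is AT5G22315 at chr5:7387888-7387959. Of the Gln(TTG) genes, 4 lie on chromosome 1, as pairs far from each other. AT1G21420 (chr1:7499733-7499804) and AT1G21800 (chr1:7656120-7656191) are 156 kb apart, and AT1G77040 (chr1:28947554-28947625) and AT1G77560 (chr1:29143090-29143161) are 195 kb apart. The others are AT3G48745 at chr3:18069078-18069149, AT5G23665 at chr5:7981398-7981469 and AT5G50805 at chr5:20675222-20675293. The closest neighbours of Gln(CTG) on 1 chromosome, AT1G01270 and AT1G03570, are 781 kb apart.

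The chloroplast tRNA Gln(TTG) has 1 gene, ATCG00060 at chrC:6616-6687. The consensus shared by the mitochondrial and nuclear genomes has the genes ATMG00950 at chrM:254505-254571 and AT2G07746 at chr2:3276440-3276511. AT2G07746 spans 72 bases, while the consensus has 67. RefSeq (TAIR10.1) holds 17 of the 19 loci by their locus tag, all of them annotated as tRNA genes at the same coordinates. AT4G03405, a Gln(CTG) gene, overlaps the protein-coding AT4G03410, whose exon structure was not used here. The others of these loci overlap no other gene. The deposited list gives no strand.

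In the nuclear tRNA Gln(CTG), both cytosines were methylated in every species with a value. C48 was at 86% in A. thaliana, 100% in B. rapa, 96% in T. durum, 29% in N. oculata and 71% in G. biloba. C49 was at 98% in A. thaliana, 88% in B. rapa, 95% in T. durum, 100% in N. oculata and 71% in G. biloba. C. taxifolia was not determined. The vascular plants thus had both positions at 71% or more, and N. oculata was the species in which C48 lay far below C49.

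In the nuclear tRNA Gln(TTG), the balance between the cytosines varied among the species. C48 was at 92% in A. thaliana, 8% in B. rapa, 66% in T. durum, 6% in C. taxifolia and 33% in N. oculata. C49 was at 0% in A. thaliana, 54% in B. rapa, 69% in T. durum, 94% in C. taxifolia and 100% in N. oculata. G. biloba was not determined. A. thaliana had methylation at C48 without any at C49, B. rapa and C. taxifolia had C49 with C48 below 20%, and T. durum had similar levels at both.

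**Figure D1:**
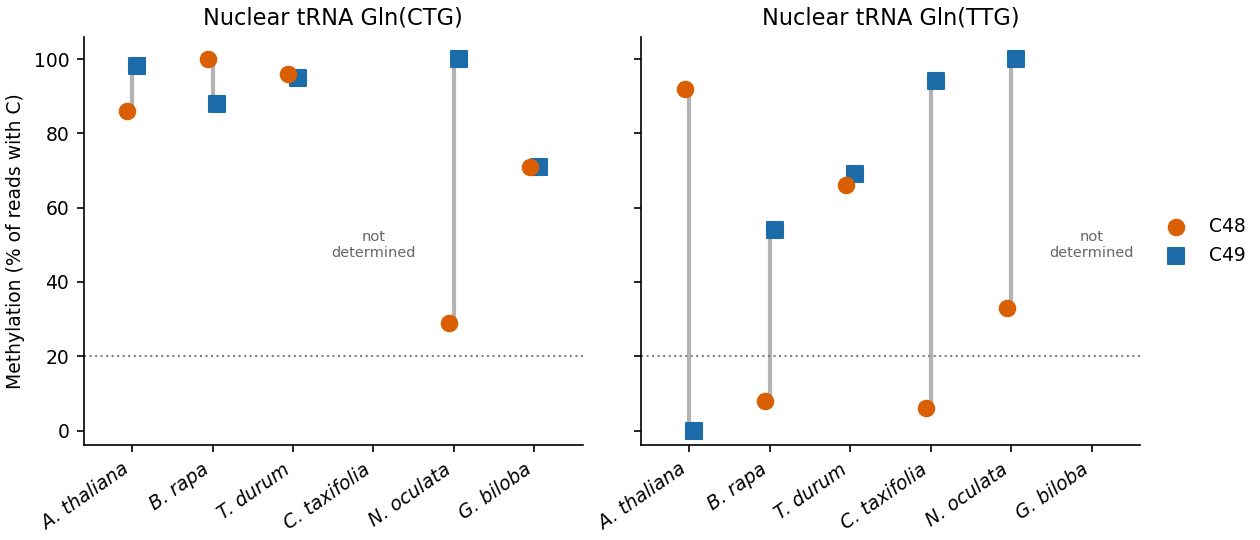
Methylation at C48 (circles) and C49 (squares) of the nuclear tRNA Gln(CTG), left, and Gln(TTG), right, in percent of reads with C, by species, where the A. thaliana points are the authors' mean, the others are 1 library each and the dotted line is 20%. In Gln(CTG) all points are at 29% or more, while in Gln(TTG) C49 is at 0% in A. thaliana and C48 at 8% in B. rapa and 6% in C. taxifolia.

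The A. thaliana value of 0% at C49 of Gln(TTG) is the authors' mean, and a mean of 0 requires 0 in each library that entered it. With a mean of 92% at C48, the lowest value that 1 of 3 libraries could have had is 76.0%. The order of these cytosines in A. thaliana therefore held in each library averaged. How many libraries passed the minimum of 5 reads at this site, and the depth of any site, is not given in the sources used here, so that no interval is attached to a single percentage.

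At the authors' threshold of 20%, 17 of the 20 values of the nuclear glutamine tRNAs were methylated. Of the 198 values of all nuclear tRNAs, 89.9% were, and the table holds only sites that reach the threshold somewhere. Gln(CTG) reached 20% in 5 of 5 species at C48 and in 5 of 5 at C49. Gln(TTG) reached it in 3 of 5 species at C48 and in 4 of 5 at C49. Both cytosines were at 20% or more in 7 of 10 combinations of isodecoder and species, against 76.7% of the 43 such combinations over all nuclear tRNAs. These were 5 of 5 for Gln(CTG) and 2 of 5 for Gln(TTG), namely T. durum and N. oculata. At least 1 of both cytosines reached the threshold in 10 of 10 combinations. The same held in all other nuclear combinations except Gly(GCC) in N. oculata, at 13% at both cytosines, so this count does not set the glutamine tRNAs apart.

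Averaged over species, the difference between C49 and C48 was smaller than its SD between species in both isodecoders. In Gln(CTG), C49 averaged 90.4% and C48 76.4%, a difference of 14 ± 33.0 percentage points (SD, n = 5 species, exact two-sided sign-flip permutation test, p = 0.75, adjusted p = 0.75 over 4 tests). The difference was 12 points in A. thaliana, -12 in B. rapa, -1 in T. durum, 71 in N. oculata and 0 in G. biloba, and without N. oculata the mean was -0.25. In Gln(TTG), C49 averaged 63.4% and C48 41.0%, a difference of 22.4 ± 71.3 points (SD, n = 5 species, exact permutation p = 0.5625, adjusted p = 0.75). It was -92 points in A. thaliana, 46 in B. rapa, 3 in T. durum, 88 in C. taxifolia and 67 in N. oculata. The mean was 51.0 points without A. thaliana, 6.0 without C. taxifolia and 11.2 without N. oculata. With 5 species the smallest exact p is 0.0625, so that this design cannot reach 0.05. In Gln(CTG) the smallest p is higher still, because the difference of 0 in G. biloba has no sign to flip. The species are not replicates of 1 condition.

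Set against each other in the 4 species with both isodecoders, Gln(CTG) and Gln(TTG) differed most in the Brassicaceae, and at opposite cytosines. In A. thaliana, C49 was at 98% in Gln(CTG) and 0% in Gln(TTG), while C48 differed by -6 points. In B. rapa, C48 was at 100% in Gln(CTG) and 8% in Gln(TTG), and C49 was higher in Gln(CTG) by 34 points. In T. durum, Gln(CTG) was higher by 30 points at C48 and by 26 at C49. In N. oculata the difference was -4 points at C48 and 0 at C49.

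The mean difference between the isodecoders was smaller than its SD over species at both cytosines. At C48 the mean was 77.8% in Gln(CTG) and 49.8% in Gln(TTG), a difference of 28.0 ± 45.8 points (SD, n = 4 species, exact permutation p = 0.5, adjusted p = 0.75), higher in 2 species and lower in 2. Without B. rapa it was 6.67 points. At C49 the mean was 95.2% in Gln(CTG) and 55.8% in Gln(TTG), a difference of 39.5 ± 41.6 points (SD, n = 4 species, exact permutation p = 0.25, adjusted p = 0.75), higher in 3 species and equal in 1. Without A. thaliana it was 20 points. With 4 species the smallest exact p is 0.125 at C48. At C49 it is 0.25, the value found, because the difference of 0 in N. oculata has no sign to flip. The tests therefore cannot decide whether the isodecoders differ at C48 or at C49.

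Both positions are listed for 8 other nuclear tRNAs, and among these none had C48 above C49 in any species. They are Asp(GTC), Glu(CTC), Glu(TTC), Gly(CCC), Gly(GCC), Gly(TCC), His(GTG) and Thr(AGT), with 33 combinations of tRNA and species. C48 was above C49 in 3 of the 10 glutamine combinations, and in 0 of the 33 others, so that the glutamine tRNAs hold all of the 6.98% of nuclear combinations with this order. The 3 were Gln(TTG) in A. thaliana by 92 points, and Gln(CTG) in B. rapa by 12 points and in T. durum by 1 point. By more than 10 points, the order was found in 2 glutamine combinations, or 4.65% of the 43. In the others, C49 was above C48 in 30 and equal to it in 3. The median of C49 minus C48 was 7.5 points over the glutamine combinations and 26 over the others, whose values ran from 0 to 94.3. No test was made of this difference, since cytosines of 1 tRNA share reads and the species share ancestry.

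**Figure D2:**
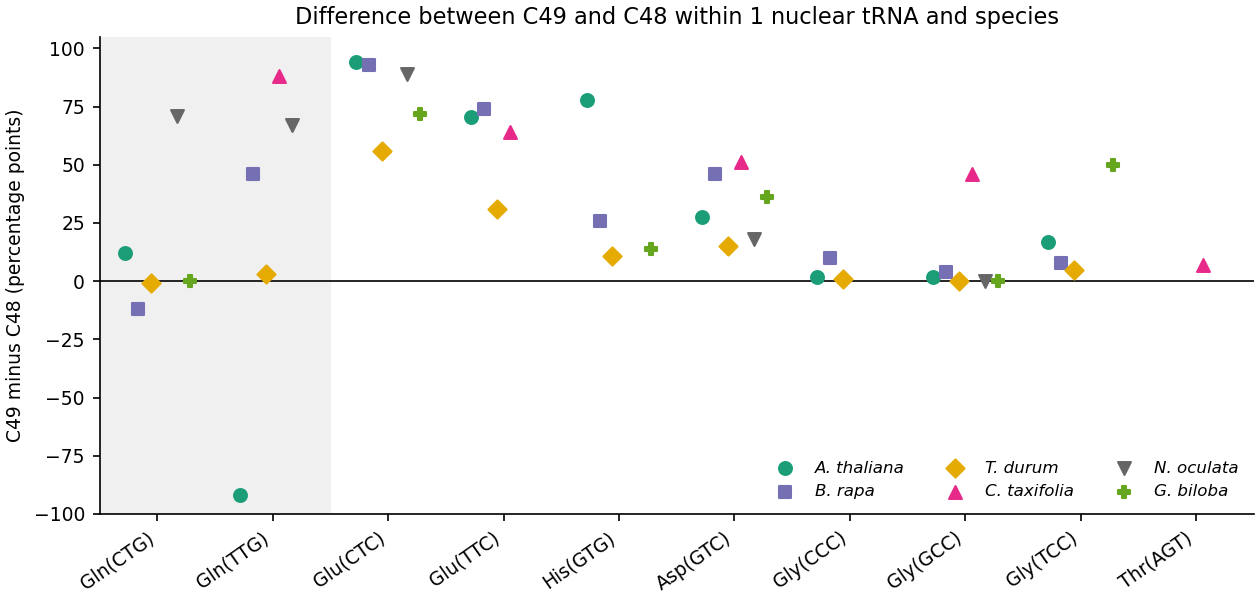
C49 minus C48 in percentage points (y axis) for each nuclear tRNA with both positions listed (x axis), 1 point per species, with the glutamine tRNAs on grey. The points below 0 are 3, all of them glutamine tRNAs, with A. thaliana Gln(TTG) at -92.

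Among the other tRNAs, Glu(CTC) had the opposite order to Gln(TTG) in A. thaliana. Its C48 was at 0% and its C49 at 94.3% in A. thaliana, and its median difference over 5 species was 89.0 points. The sequences from position 48 to 65, which cover the T arm and the base before it, are shown for comparison with that of His(GTG), which like Gln(TTG) has T at position 50.
Gln(CTG): CCcgagttcaattctcgg
Gln(TTG): CCtgggttcgactcccgg
Glu(CTC): CCcgggttcgagtcccgg
His(GTG): CCtgggctcgaatcccag
In A. thaliana, His(GTG) had C48 at 13.0% and C49 at 91.0%, the opposite order to Gln(TTG). In B. rapa and T. durum, the other species with values for both tRNAs, C49 was above C48 in both. Whether the base at position 50 relates to the order was not tested, and the bases of the other species were not examined. Over 53 nuclear sequences in which the T loop could be placed, 16 have C at both 48 and 49, and 9 of these have both sites listed. CC followed by T occurs in 3, of which Gln(TTG) and His(GTG) are listed at both positions. CCC from 48 to 50 occurs in 11, and 6 of them have C48 and C49 listed. Of those 6, 5 also have C50 listed, and the exception is Gln(CTG).

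The species values of Gln(TTG) lay further apart than those of almost all other nuclear sites. Of the 33 nuclear sites with values in 4 or more species, C49 of Gln(TTG) had the widest range, 100 points from 0 to 100%, and C48 of Gln(TTG) ranked 3 with 86 points. C48 of Gln(CTG) ranked 7 with 71 points, and C49 of Gln(CTG) ranked 21 with 29 points. The sites of other tRNAs had a median range of 40 points and a highest one of 92.0, at C48 of Gly(GCC). The sites C49, C38 and C50 of Gly(GCC) ranked 4, 5 and 6, so that a wide range was not particular to Gln(TTG).

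The closest relatives in the set, A. thaliana and B. rapa, differed more at the Gln(TTG) sites than at any other nuclear site. Values in both species were listed for 38 nuclear sites. The difference was 84 points at C48 and 54 points at C49 of Gln(TTG), the highest and second highest of the 38 sites, and of opposite sign. It was 14 points at C48 and 10 points at C49 of Gln(CTG). The sites of other tRNAs differed by a median of 3.0 points and by 52 at most. From A. thaliana to T. durum, C49 of Gln(TTG) differed by 69 points, rank 2 of 36 sites, and to N. oculata by 100 points, rank 1 of 20. Between C. taxifolia and N. oculata, the algae, C49 of Gln(TTG) differed by 6 points and C48 by 27.

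**Figure D3:**
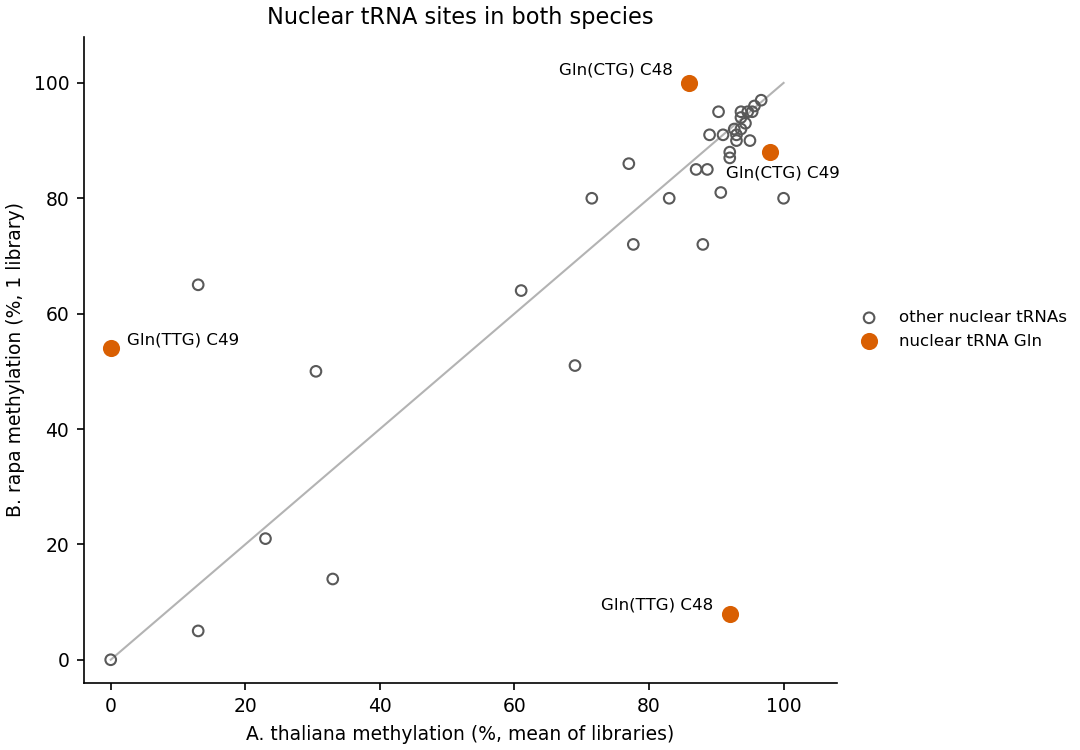
Methylation in percent of the 38 nuclear tRNA sites with a value in A. thaliana (x axis, mean of libraries) and B. rapa (y axis, 1 library), with the line of equal values and the glutamine sites filled. C48 and C49 of Gln(TTG) lie farthest from the line, on opposite sides of it, and those of Gln(CTG) lie 14 and 10 points from equality.

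The RBS-seq reads were aligned to sequences with every C turned into T. What sets both isodecoders apart after conversion therefore bears on whether their reads could be told apart. The nuclear consensus sequences differ at 14 of 72 positions (80.6% identity). By structural position, with the base of Gln(CTG) first, C12G, G23C, A26T, A45G, A52G, A57G and A69G remain after conversion, and C16T, T27C, C34T, T44C, C50T, T59C and T62C are lost. The lost ones include position 34, the anticodon base that separates CTG from TTG. With 7 differences left (90.3% identity), each is the other's closest match of equal length, and the next closest, Gly(TCC) for Gln(CTG) and Asp(GTC) for Gln(TTG), differs at 19 positions. The remaining differences nearest to the sites are at positions 45 and 52, which flank C48 and C49.

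**Figure D4:**
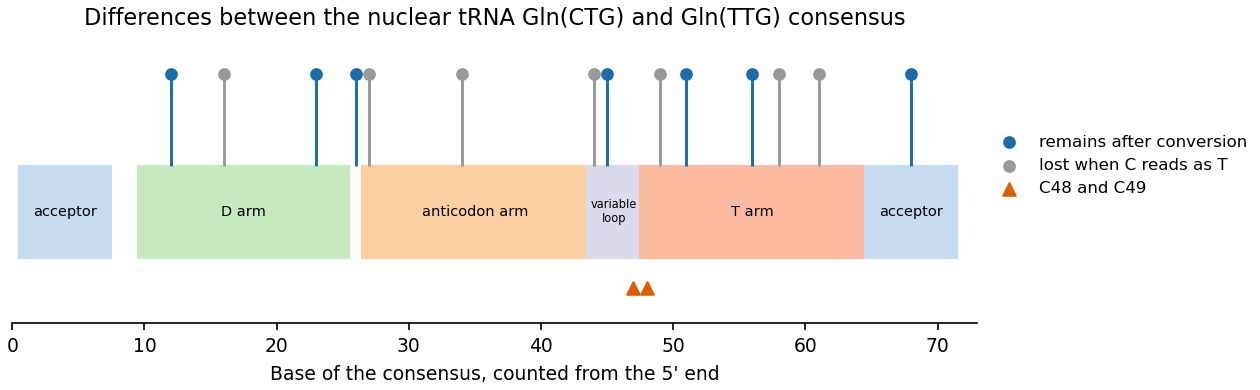
Positions at which the nuclear Gln(CTG) and Gln(TTG) consensus sequences differ, along the 72 bases counted from the 5′ end, over blocks for the arms of the tRNA. Blue marks are the 7 differences that remain after conversion, grey marks the 7 that are lost, and triangles mark C48 and C49, which lie between remaining differences.

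In the same structural terms, both sequences have G at position 15, the partner of base 48, and a C-G pair between 49 and 65. The next pair, 50 with 64, is C-G in Gln(CTG) and T-G in Gln(TTG). All 21 stem pairs are formed in both, 19 of them Watson-Crick in Gln(CTG) and 18 in Gln(TTG), the rest being G-T pairs. Which sequence the reads were aligned to also differed by species. In the study's list of the reference sequences matched in each species, both glutamine tRNAs of B. rapa were found with the A. thaliana sequences, those of T. durum and the Gln(CTG) of G. biloba with the A. thaliana and a related species' sequence, and those of C. taxifolia and N. oculata with a related species' sequence alone. The part of read sharing and of the reference in the values above was not tested.

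The nuclear glutamine tRNAs had few reads in the A. thaliana RNA-seq library. Gln(CTG) was above the median of the nuclear isodecoders, and Gln(TTG) was only slightly above it, with a counting interval that includes it. Nuclear Gln(CTG) was at 7.87 RPM, the library's reads scaled to a common total, which the steps of the RPM values turn into 23 reads (95% exact Poisson interval 4.99 to 11.8 RPM). Nuclear Gln(TTG) was at 2.74 RPM, or 8 reads (1.18 to 5.39). They ranked 12 and 26 among 58 nuclear isodecoders, whose median was 2.39 RPM. The ratio of Gln(CTG) to Gln(TTG) was 2.88 in reads (exact 95% interval 1.24 to 7.43), or 1.37 on the log2(RPM + 0.5) scale. Per gene, Gln(CTG) had 0.874 RPM and Gln(TTG) 0.391 RPM, with a median of 0.299 RPM over 57 nuclear isodecoders. The intervals cover counting error only, and 1 library gives no replicate error and no test between conditions.

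The chloroplast tRNA Gln(TTG) was far more abundant. This tRNA serves translation inside the organelle, and in chloroplasts glutamine is made on it from glutamate. It was at 1277 RPM from 1 gene (3735 reads, 1237 to 1319 RPM), rank 10 of the 100 sequences, which was 162 times nuclear Gln(CTG) and 466 times nuclear Gln(TTG), all of them 72 bases long. The sequence shared by the mitochondrial and nuclear genomes was at 7.52 RPM (22 reads, 4.72 to 11.4). Per 100 bases, the abundances were 1774 RPM for the chloroplast sequence, 11.2 for the shared one, 10.9 for nuclear Gln(CTG) and 3.81 for nuclear Gln(TTG). The shared sequence and nuclear Gln(CTG) overlap in their intervals. Of all glutamine tRNA reads, 98.6% were from the chloroplast (exact binomial interval 98.2 to 99.0%), and both nuclear isodecoders together gave 0.819%. All glutamine tRNAs summed to 1296 RPM, or 0.654% of the tRNA total.

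**Figure D5:**
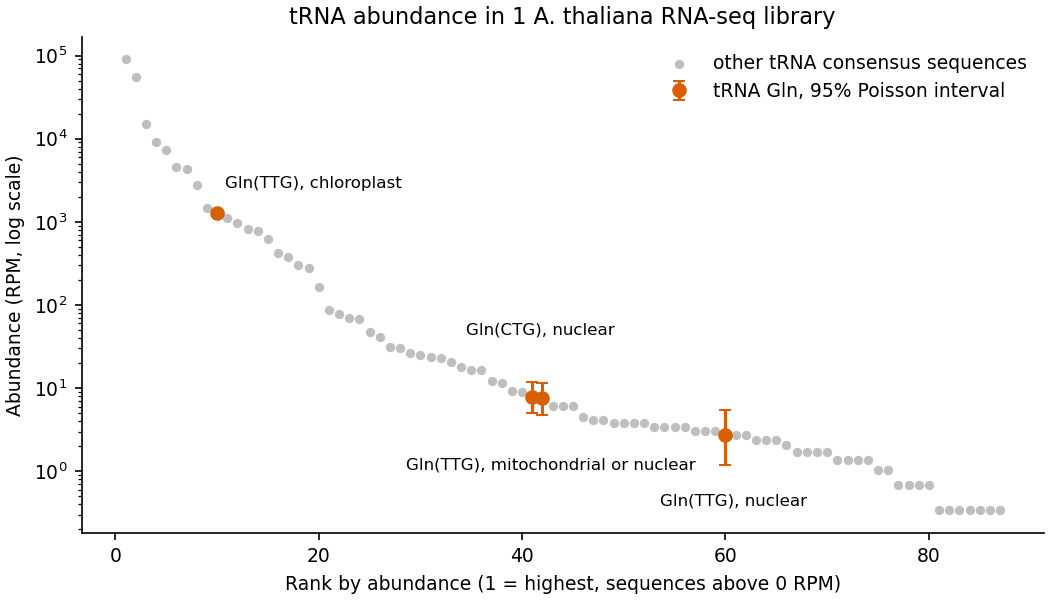
Abundance in RPM (log scale) of the consensus sequences above 0 RPM in 1 A. thaliana RNA-seq library, by rank, with the glutamine tRNAs in orange and their 95% Poisson intervals. The chloroplast Gln(TTG) is at 1277 RPM and the other glutamine tRNAs lie between 2.74 and 7.87 RPM.

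In A. thaliana, the isodecoder with 0% at C49 was thus also the less abundant of the nuclear glutamine tRNAs. The RBS-seq depth at its sites is unknown, and the part of low depth in its values was not tested.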

How the data were processed

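The methylation table was deposited by the authors in percent, the share of C among C and T reads, after adapter trimming, quality filtering and alignment in CLC Genomics Workbench (version not given in the sources used here) to sequences with every C turned into T. They required 5 reads per site and checked conversion with an unmethylated spike-in. Its A. thaliana column is a mean, so no replicate error can be computed. The abundance table holds RPM values, as deposited. At a total of 2923785, 100% of the 87 values above 0 gave whole reads within 0.005 RPM. Coordinates are those of TAIR10.

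Structural positions were counted from the 3′ end (last base 73), with 17 and 47 absent and 20a present in the nuclear sequences. Values were compared in Python 3.11.15, NumPy 2.4.6, SciPy 1.17.1 and Biopython 1.88 by exact sign-flip tests over species, with Benjamini-Hochberg adjustment over 4 tests, and drawn in Matplotlib 3.10.9. Functions were tested on simulated data. All sequences named Gln were reported, beside every other nuclear tRNA with C48 and C49 listed. Members and lists were chosen with earlier results of these data known. Alternatives were thresholds of 10, 30 and 40%, medians, species left out, other pseudocounts, other groupings of origins and a gapped alignment.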

Additional observations from a re-analysis of the deposited data

Results flagged for a closer look

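The difference C49 minus C48 took opposite signs in species of the same isodecoder, each with 1 value per species, and these differences were not tested. In nuclear tRNA Gln(TTG), the difference in A. thaliana was below that in B. rapa (-138 points), T. durum (-95 points), C. taxifolia (-180 points) and N. oculata (-159 points). In nuclear tRNA Gln(CTG), the difference in B. rapa minus that in N. oculata was -83 points, and that in T. durum minus that in N. oculata was -72 points. In T. durum it was -1 point in Gln(CTG) and 3 points in Gln(TTG), so that its sign rests on a very small difference.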

How the results depend on the processing

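Of 54 alternatives, 1 reversed the direction of a result and 2 moved a value. Of these 2, the chloroplast share moved beyond its counting interval. The median of C49 minus C48 in Gln(CTG) fell to 0.0, which lies within the spread of the mean difference. The other 51 kept the direction and the side of the threshold, although the size of a mean difference could change severalfold with 1 species left out. Without N. oculata, C49 minus C48 in Gln(CTG) turned to -0.25 points, and as a median over species it was 0.0. The chloroplast share of glutamine tRNA RPM was 99.2% when the sequence shared by the mitochondrial and nuclear genomes was counted with it. Leaving out each species in turn, C49 minus C48 ran from -0.25 to 20.5 points in Gln(CTG) and from 6.0 to 51.0 in Gln(TTG), and Gln(CTG) minus Gln(TTG) ran from 6.67 to 39.3 at C48 and from 20 to 52.7 at C49. The number of methylated values was 17 at a threshold of 10%, 16 at 30% and 15 at 40%, and combinations with both cytosines methylated numbered 7, 6 and 5. C48 above C49 by more than 10 points was found in 2 glutamine combinations and in 0 of the others. The log2 ratio of the nuclear isodecoders was 1.49 with a pseudocount of 0.1 and 1.25 with 1. No paired analysis was possible because the A. thaliana libraries are deposited as their mean and the other species have 1 library each, so that a shared replicate number pairs no samples. The tests over species already pair values within a species. Unknown depth per site limits the methylation values, and 23 and 8 reads limit the nuclear abundances.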

Other observations

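All 4 A. thaliana values of the nuclear glutamine tRNAs are whole numbers, as are 31 of the 47 A. thaliana values in the table, or 25 of the 41 above 0. The mean of C48 and C49 in nuclear Gln(TTG) was 46% in A. thaliana, 31% in B. rapa, 67.5% in T. durum, 50% in C. taxifolia and 66.5% in N. oculata. In Gln(CTG) it was 92% in A. thaliana, 94% in B. rapa, 95.5% in T. durum, 64.5% in N. oculata and 71% in G. biloba. The mean over both cytosines was thus higher in Gln(CTG) than in Gln(TTG) in A. thaliana, B. rapa and T. durum, and lower in N. oculata, at 64.5% against 66.5%.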
